A study of Mus musculus with 5 samples.

Results

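The enzyme families that oxidise, reduce, hydrolyse and conjugate foreign compounds, steroids, bile acids and aldehydes were followed in 5 libraries of mouse embryonic tissue. Members were chosen by gene name alone, as loci of the deposited table that carried a single name of the cytochrome P450 (Cyp), glutathione S-transferase (Gst), UDP-glucuronosyltransferase (Ugt), sulfotransferase (Sult), alcohol dehydrogenase (Adh), aldehyde dehydrogenase (Aldh), aldo-keto reductase (Akr), flavin monooxygenase (Fmo), epoxide hydrolase (Ephx) or carboxylesterase (Ces) families. Aldh1a2 was left out. This gave 74 of the 12375 named loci, among them Cyp4f41-ps, which is annotated as a transcribed pseudogene. The libraries came from C57BL/6J embryos, with no treatment or allele named in the labels. The earlier libraries, from embryonic day 8.5 (E8.5), were of foregut and of medial foregut. The later ones, from E10.5, were of liver and of the ventral and dorsal pancreas. With 1 library per tissue there was no replicate error to compare a difference with, and no test was run. The sources used here do not say whether embryos were pooled. Values are FPKM, fragments per kilobase of transcript scaled to the mapped fragments of the library, and the depth in reads is unknown.

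In the adult liver these enzymes handle foreign and endogenous compounds in steps. P450s and flavin monooxygenases add oxygen, dehydrogenases and reductases convert alcohols, aldehydes and ketones, hydrolases open epoxides and esters, and transferases attach glutathione, glucuronic acid or sulfate so that the product can be exported. The same families also hold housekeeping enzymes of amino acid, folate and sterol metabolism, and the foregut endoderm gives rise to liver and pancreas.

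The labels were checked against marker genes. The 5 hepatocyte markers found of 6 listed (Alb, Apoa1, Apoa2, Trf and Hnf4a) summed to 4688 FPKM in liver, against 459 in ventral and 45.4 in dorsal pancreas, and to 15.9 in foregut and 12.3 in medial foregut. The 5 pancreatic progenitor markers summed to 2.37 FPKM in liver, against 102 in ventral and 107 in dorsal pancreas, with Ptf1a listed at 0 in liver. Other cell types were present as well. The 5 cardiomyocyte markers summed to 3294 FPKM in foregut and 5653 in medial foregut, against 311 in liver, with 7.02 in ventral and 6.80 in dorsal pancreas. The 3 leukocyte markers found of 6 summed to 63.7 FPKM in liver and between 0.698 and 4.52 in the other libraries, with C1qb and Cx3cr1 listed at 0 at E8.5. The 5 endothelial markers summed to 10.6 FPKM in ventral pancreas and between 41.1 and 90.9 elsewhere. In such bulk samples, fewer cells of a type and less RNA per cell cannot be told apart.

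Of the 74 members, 66 reached 1 FPKM in some library, 43 reached 5 FPKM and 21 reached 20 FPKM. Most were low for this table: the median member stood at 1.34 FPKM in foregut and 1.68 in medial foregut, against 3.57 in liver, with 4.28 in ventral and 3.56 in dorsal pancreas, where the median of all named loci was 9.35, 9.29, 8.60, 10.6 and 10.3. Summed over the members, the level was 819 FPKM in foregut and 865 in medial foregut, against 1837 in liver, with 1266 in ventral and 997 in dorsal pancreas. Liver thus carried the highest sum, 0.365% of all FPKM in the library, and the E8.5 libraries the lowest, at 0.179% and 0.171%. Aldehyde, alcohol and carbonyl enzymes made up most of the sum in every library, with 1240.5 FPKM in liver against 507 for the conjugating enzymes. The P450s of the Cyp1 to Cyp4 families, without the vitamin D hydroxylase Cyp2r1, and the flavin monooxygenases, 18 members in all, together gave 45.1 FPKM in liver and 57.1 in ventral pancreas. This sum covers single-name loci only. The joined locus of Cyp2c40, Cyp2c68 and Cyp2c69 stood at 137 FPKM in liver and 12.3 in ventral pancreas. That of Cyp4f16 and Gm9705 stood at 9.70 and 34.6.

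**Figure D1:**
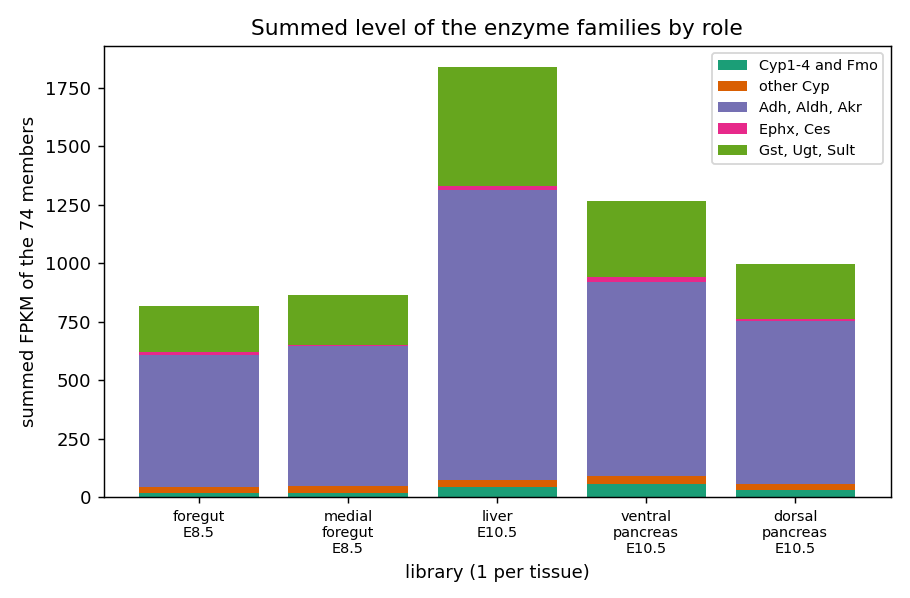
Summed FPKM of the 74 members in each of the 5 libraries (1 per tissue), stacked by the role of the enzymes. The liver bar is highest at 1837 FPKM, the E8.5 bars lowest at 819 and 865, and the Adh, Aldh and Akr share is the largest in each bar.

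The members were not uniformly hepatic. Liver was the highest of the 5 libraries for 32 members (43.2%), ventral pancreas for 23, medial foregut for 9, dorsal pancreas for 8 and foregut for 2. Over all named loci liver was highest for 23.4% and ventral pancreas for 27.5%. At E10.5 the order liver above ventral above dorsal pancreas was met by 30 members (40.5%) and by 16.9% of all named loci. The opposite order was met by 11 members and by 26.3% of all named loci. Among the 21 members at 20 FPKM or more, liver was highest for 15.

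Of the 4 Akr1c genes that lie together on chromosome 13, 3 shared a profile and the fourth did not, and their promoters are shown here because the data set them apart. Each runs from 250 bases before to 50 after the RefSeq start site on GRCm38.p6, 5′ to 3′. Capitals mark CATTAG on either strand, letters chosen after the sequences were read, and matches to the motifs given below.
Akr1c13: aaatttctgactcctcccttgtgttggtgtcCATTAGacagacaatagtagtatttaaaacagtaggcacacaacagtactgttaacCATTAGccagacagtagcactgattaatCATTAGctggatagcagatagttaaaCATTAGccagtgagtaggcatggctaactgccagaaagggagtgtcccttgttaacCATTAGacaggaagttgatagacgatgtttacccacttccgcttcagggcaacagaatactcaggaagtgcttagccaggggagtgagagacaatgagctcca
Akr1c19: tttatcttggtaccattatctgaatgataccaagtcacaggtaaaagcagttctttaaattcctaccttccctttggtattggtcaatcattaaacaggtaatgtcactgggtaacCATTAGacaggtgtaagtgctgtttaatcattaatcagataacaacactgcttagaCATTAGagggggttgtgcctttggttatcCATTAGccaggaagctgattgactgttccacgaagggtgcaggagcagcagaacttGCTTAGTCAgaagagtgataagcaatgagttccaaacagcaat
Akr1c12: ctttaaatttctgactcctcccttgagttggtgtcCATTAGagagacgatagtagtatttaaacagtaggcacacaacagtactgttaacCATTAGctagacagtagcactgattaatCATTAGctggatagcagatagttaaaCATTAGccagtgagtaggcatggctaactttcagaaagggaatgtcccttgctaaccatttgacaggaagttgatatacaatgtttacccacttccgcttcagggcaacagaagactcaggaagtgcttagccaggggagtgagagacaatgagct
Akr1c18: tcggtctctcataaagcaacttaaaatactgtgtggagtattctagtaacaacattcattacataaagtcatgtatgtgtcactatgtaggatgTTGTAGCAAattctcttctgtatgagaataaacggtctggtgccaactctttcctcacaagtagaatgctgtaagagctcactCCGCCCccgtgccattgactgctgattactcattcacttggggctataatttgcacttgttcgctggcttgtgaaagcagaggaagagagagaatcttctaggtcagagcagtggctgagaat
They lie at chr13:4190937-4191236 (plus strand), chr13:4233490-4233789 (plus), chr13:4279350-4279649 (minus) and chr13:4150597-4150896 (minus). CATTAG occurred 5 times before the start site of Akr1c13, 3 times at Akr1c19, 4 times at Akr1c12 and 0 times at Akr1c18. Of 32851 RefSeq promoters of this length, 9 (0.0274%) held 3 or more copies, those of these 3 genes among them. Since the letters were taken from these promoters, this share is no test of them. The Akr1c12 and Akr1c13 promoters were 93.4% identical over their alignment, Akr1c13 and Akr1c19 58.5%, and Akr1c18 between 47.2% and 48.0% identical to the others.

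The next pair is shown as a contrast within the mu class of glutathione S-transferases on chromosome 3, since Gstm1 differed widely between libraries and Gstm5 did not. RefSeq lists 2 starts for Gstm1, and the upstream one is used.
Gstm1: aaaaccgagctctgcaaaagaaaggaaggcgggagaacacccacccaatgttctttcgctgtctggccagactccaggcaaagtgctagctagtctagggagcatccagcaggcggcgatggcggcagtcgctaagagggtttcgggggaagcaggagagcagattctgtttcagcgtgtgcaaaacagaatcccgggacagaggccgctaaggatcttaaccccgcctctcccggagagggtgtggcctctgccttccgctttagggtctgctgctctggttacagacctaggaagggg
Gstm5: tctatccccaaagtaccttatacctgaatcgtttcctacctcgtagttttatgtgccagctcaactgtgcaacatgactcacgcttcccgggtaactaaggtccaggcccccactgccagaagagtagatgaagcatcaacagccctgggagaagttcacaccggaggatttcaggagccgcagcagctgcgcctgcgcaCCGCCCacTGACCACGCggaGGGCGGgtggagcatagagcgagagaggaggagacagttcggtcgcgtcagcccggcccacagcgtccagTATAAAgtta
They lie at chr3:108017924-108018223 (minus strand) and chr3:107895604-107895903 (plus). Their promoters were 46.5% identical.

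Motifs were searched on both strands by their letters. The antioxidant response element TGACNNNGC, a site for NRF2, was found once at Akr1c19 and once at Gstm5, and in 12.4% of all promoters. It occurred in 5 of the 55 members matched by symbol (9.09%). The C/EBP sequence TTGCNNCAA was found at Akr1c18 (2.08% of all promoters). TATAAA was found at Gstm5, after its start site (13.6%), and the GC box GGGCGG once at Akr1c18 and at 2 places at Gstm5 (35.7%). No 2 marked matches overlapped. The xenobiotic response element TNGCGTG (5.07% of all promoters), the HNF1 element GTTAAT (7.10%) and the HNF4 core CAAAGTCCA (0.475%) had no match in the 6 windows. A match describes letters only, and no match says nothing about the factor.

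Akr1c13, Akr1c19 and Akr1c12, aldo-keto reductases of the hydroxysteroid dehydrogenase subfamily, were far higher in liver than at E8.5, and lower in pancreas than in liver. Akr1c13 (mm9 chromosome 13, 4190447 to 4204825) stood at 3.93 FPKM in foregut and 2.76 in medial foregut, against 153 in liver, with 21.0 in ventral and 22.5 in dorsal pancreas. Akr1c19 (4232948 to 4258023) stood at 2.83, 2.26, 95.6, 52.0 and 23.3 FPKM in the same order of libraries, which is kept wherever 5 values follow each other without tissue names. Akr1c12 (4261384 to 4278608) stood at 1.10, 0.932, 45.7, 9.001 and 8.76. In each of these, liver was highest, the pancreatic libraries lay between, and the E8.5 libraries were lowest. Akr1c18, the 20-alpha-hydroxysteroid dehydrogenase gene next to them (4131881 to 4149900), stayed between 0.107 and 0.830 FPKM. On the log2(FPKM + 1) scale, on which changes of low genes are understated, Akr1c13 was 2.81 above ventral and 2.72 above dorsal pancreas in liver. Akr1c12 was 2.22 and 2.26 above, and Akr1c19 0.87 and 1.99. The coding sequences of Akr1c12 and Akr1c13 were 96.2% identical in the GENCODE M21 transcripts, and 11.5% of the 100-base windows of either transcript also occurred in the other. Reads from such windows cannot be assigned to either gene. Akr1c19 was 77.8% identical to each, and its shared windows (3.35%) were not with these genes.

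Other aldo-keto reductases were flat or low. Akr1a4, the general aldehyde reductase annotated as Akr1a1, was the highest member of all, at 224 FPKM in foregut and 271 in medial foregut, against 269 in liver, with 257 in ventral and 248 in dorsal pancreas. Its highest library exceeded its lowest by 1.21 times. Akr7a5, of the aflatoxin aldehyde reductase group, stood at 16.9, 16.0, 19.6, 31.2 and 22.6 FPKM, with ventral pancreas highest. Its locus has the same interval as Pqlc2 on the opposite strand, and the protocol describes no strand marking. Akr1e1 lay between 13.02 and 15.3 FPKM. Akr1b8 (3.19 to 11.6 FPKM) and Akr1b3 (4.21 to 11.6) were highest in medial foregut. The Akr1b3 locus covers 1.89% of the annotated span, and 73.99% of the windows of its transcript occur in other genes, most in pseudogenes.

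The aldehyde dehydrogenases, enzymes that oxidise aldehydes to acids, leaned to liver. Of 14 members, 10 were highest in liver, and all 14 reached 1 FPKM. Aldh4a1, the mitochondrial enzyme of proline breakdown (chromosome 4, 139178791 to 139205640), stood at 12.4 FPKM in foregut and 8.80 in medial foregut, against 133 in liver, with 53.1 in ventral and 21.5 in dorsal pancreas. This is a stepwise order with liver at 2.51 times ventral and 6.20 times dorsal pancreas. Of its transcript windows 42.6% also occur in transcripts of Gm21969. Aldh18a1, which acts in the opposite direction in proline synthesis, was flat at 31.0, 27.3, 33.5, 27.7 and 38.7 FPKM. Aldh2, the mitochondrial enzyme that clears acetaldehyde, stood at 21.8, 18.4, 81.6, 57.8 and 31.9 FPKM, in the same order of E10.5 tissues as Aldh4a1. Aldh1l1, the 10-formyltetrahydrofolate dehydrogenase of folate metabolism, stood at 0.313, 0.0427, 6.95, 2.21 and 1.13 FPKM.

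Aldh1b1 went another way. This mitochondrial aldehyde dehydrogenase, known as a marker of pancreatic progenitors (chromosome 4, 45811735 to 45817549), stood at 0.504 FPKM in foregut and 0.548 in medial foregut, against 22.0 in liver, with 24.4 in ventral and 35.3 in dorsal pancreas. All 3 E10.5 libraries lay far above both E8.5 libraries, and dorsal pancreas was highest. Its coding sequence was 70.1% identical to that of Aldh2, and none of its transcript windows occurred in another gene.

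Further dehydrogenases differed less. Aldh3a2, the fatty aldehyde dehydrogenase, stood at 9.83, 9.12, 23.4, 12.4 and 8.54 FPKM. Aldh7a1, an enzyme of lysine breakdown, was at 42.7, 46.5, 82.0, 62.0 and 41.9 FPKM, and Aldh9a1, of carnitine synthesis, at 25.8, 24.3, 49.1, 26.6 and 25.1. In these 3 genes liver was highest, while the dorsal library was close to E8.5. Aldh16a1, whose locus has the interval of Pih1d1 on the opposite strand, was at 12.2, 13.4, 20.3, 15.6 and 12.9 FPKM. Adh5, the class III enzyme that clears formaldehyde, stood at 117, 111, 146, 119 and 105 FPKM, a range of 1.39 times. Adh1, the ethanol-oxidising form of adult liver, did not exceed 0.666 FPKM. Of the remaining aldehyde dehydrogenases, Aldh5a1, of GABA breakdown, was at 4.19 to 14.9 FPKM, and Aldh6a1, of valine breakdown, at 4.55 to 16.8, each highest in liver and above its E8.5 levels in all 3 E10.5 libraries. Aldh1a1, Aldh1a3 and Aldh1l2 did not exceed 2.13 FPKM, and the Aldh1a1 locus covers 27.5% of the annotated span.

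**Figure D2:**
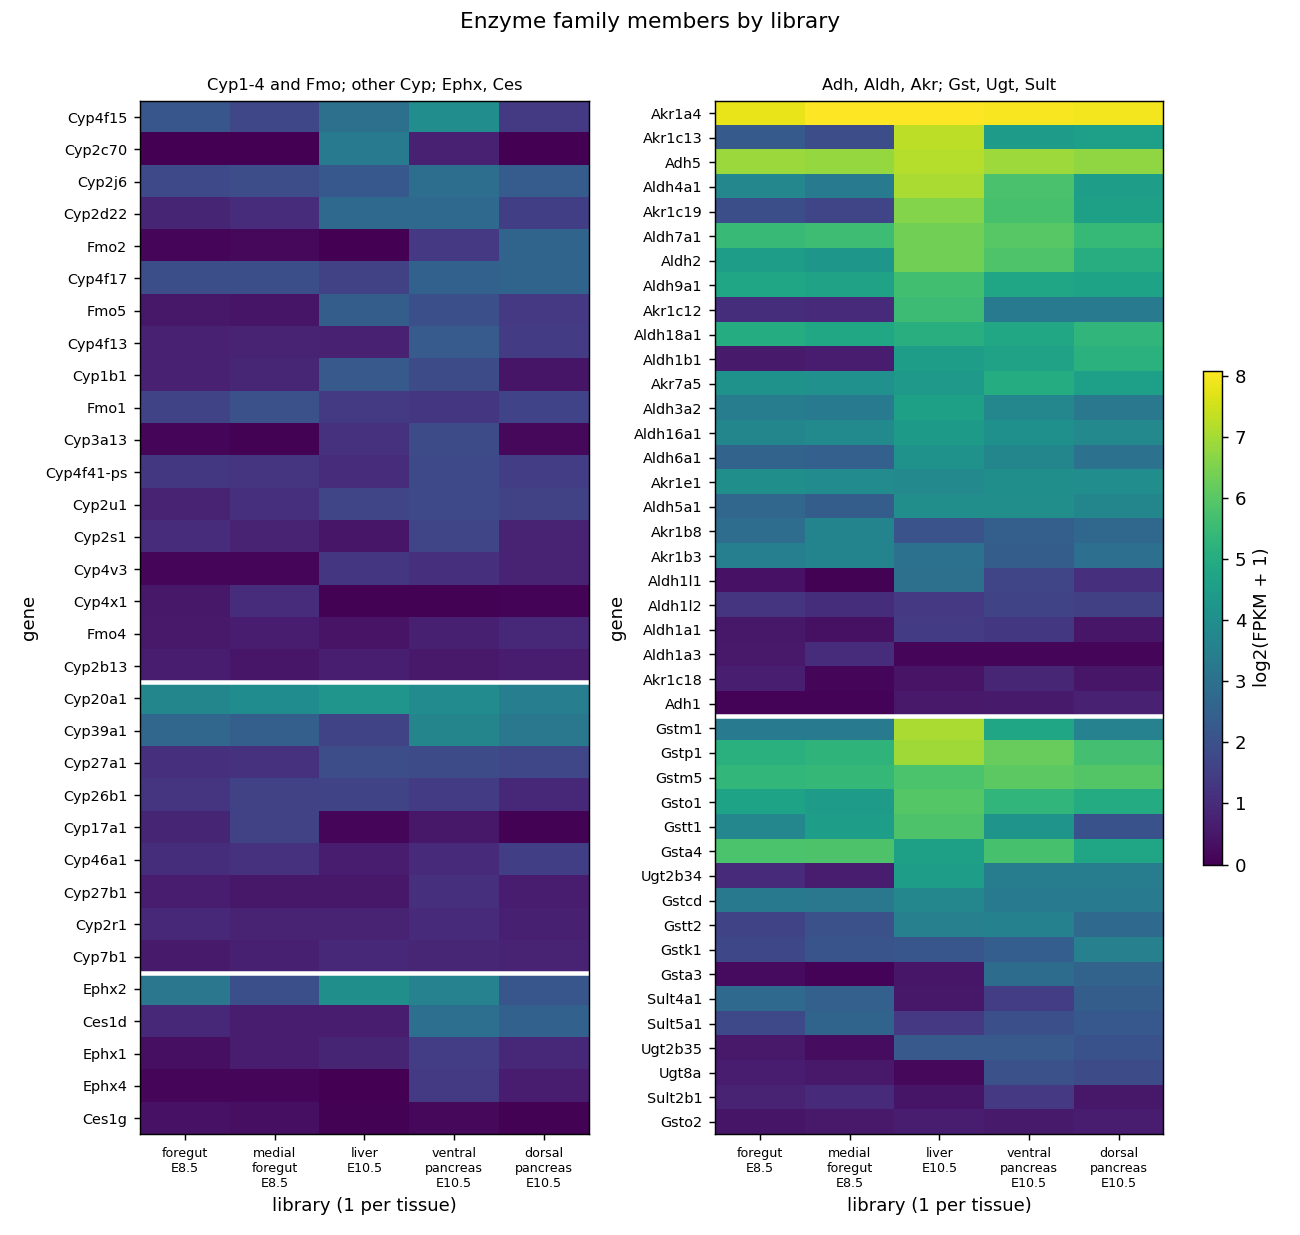
Level of each of the 74 members as log2(FPKM + 1), by colour, in the 5 libraries (1 per tissue), with genes ordered by their highest value within each role and white lines between roles. Akr1a4 and Adh5 are bright in all 5 columns, Akr1c13, Akr1c19, Aldh4a1 and Gstm1 are brightest in liver, and most P450 rows are dark throughout.

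Glutathione S-transferases, which couple glutathione to reactive compounds, held 11 members, and 6 of them were highest in liver. Gstm1 (mu class, chromosome 3, 107814997 to 107820869) stood at 8.76 FPKM in foregut and 9.05 in medial foregut, against 133 in liver, with 26.2 in ventral and 11.1 in dorsal pancreas. Gstm5 stood at 39.6, 40.6, 55.2, 64.9 and 60.4 FPKM. Its locus measures 344% of the annotated span. Thus Gstm1 lay below Gstm5 in 4 libraries and above it in liver. The 2 coding sequences were 64.0% identical, and 9.05% of the Gstm1 windows occur in other genes, among them Gstm3. Gstp1 (pi class) stood at 34.2, 37.7, 123, 72.2 and 49.6 FPKM. Since 52.8% of its windows occur in Gstp2 and a pseudogene, its value is uncertain.

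Gstt1 and Gstt2, theta class genes next to each other on chromosome 10, differed in dorsal pancreas. Gstt1 (75244622 to 75261424) stood at 12.4, 21.8, 56.0, 17.1 and 3.15 FPKM, and Gstt2 at 2.17, 2.98, 10.4, 10.7 and 5.74. Gstt1 had its lowest value in dorsal pancreas and Gstt2 had its lowest in foregut. Gsto1 (omega class) stood at 25.1, 20.8, 61.2, 39.1 and 30.7 FPKM, while Gsto2 beside it on chromosome 19 stayed between 0.360 and 0.556. Gstk1, a kappa class enzyme of mitochondria and peroxisomes, was highest in dorsal pancreas, at 2.41, 3.26, 3.50, 4.34 and 10.46 FPKM.

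The alpha class ran against liver. Gsta4, known for conjugating lipid peroxidation products, stood at 54.5, 55.8, 23.4, 52.4 and 25.9 FPKM, with liver lowest and dorsal pancreas close to it. Gsta3 (chromosome 1, 21230552 to 21255586) stood at 0.171, 0.0550, 0.395, 6.24 and 4.97 FPKM, and was above 1 FPKM in the pancreatic libraries only. Gstcd, which the name rule takes for its transferase-like domain, was at 8.64, 8.53, 12.4, 9.39 and 8.79 FPKM. Its locus has the interval of Ints12 on the opposite strand.

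Among other transferases, Ugt2b34, a UDP-glucuronosyltransferase (chromosome 5, 87318797 to 87336009), stood at 0.936 FPKM in foregut and 0.546 in medial foregut, against 22.0 in liver, with 9.68 in ventral and 9.60 in dorsal pancreas. Its neighbour Ugt2b35 stood at 0.482, 0.214, 3.74, 3.81 and 3.08 FPKM. Both were above their E8.5 levels in all 3 E10.5 libraries, and the coding sequences were 72.0% identical. Ugt8a, which makes galactosylceramide, stood at 0.518, 0.461, 0.118, 2.98 and 2.58 FPKM. Sult4a1, a sulfotransferase-like gene of the nervous system, stood at 5.86, 4.55, 0.447, 1.77 and 4.19 FPKM, lowest in liver. Sult5a1 (1.52 to 5.06 FPKM) and Sult2b1 (0.389 to 1.52, at a locus on the other strand) were lowest in liver too. The 4 neural markers summed to 96.7, 39.6, 3.10, 13.2 and 40.2 FPKM in the same libraries. The 4 did not share a profile. Sox2 and Sox10 stood at 38.9 and 8.10 FPKM in foregut but at 0.464 and 0.497 in dorsal pancreas, where Pax6 stood at 26.2 and Tubb3 at 13.1. The part of neural cells in the Sult4a1 values was not tested.

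**Figure D3:**
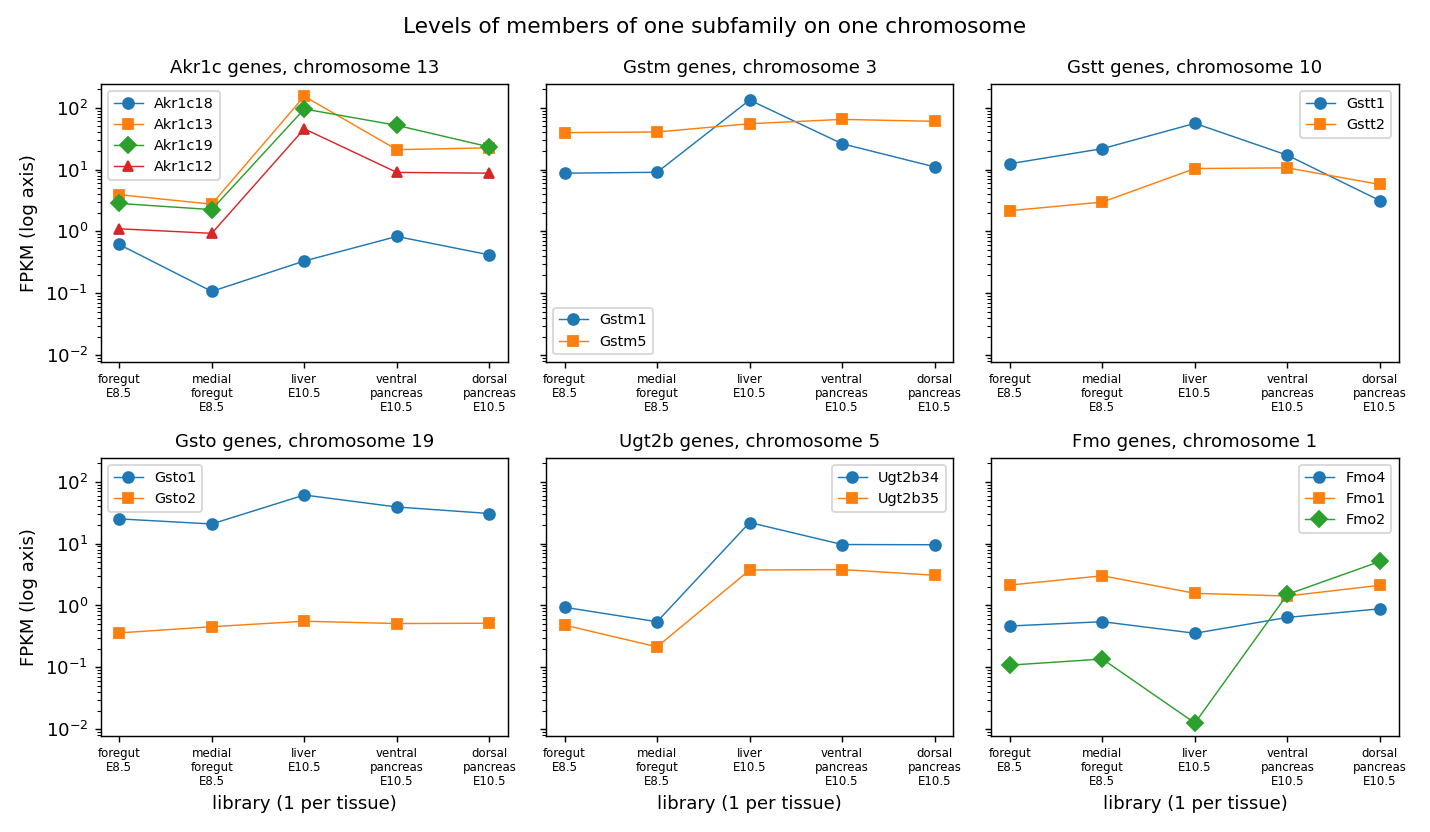
FPKM on a log axis in the 5 libraries (1 per tissue) for 6 sets of subfamily members on the same chromosome; lines join the points of 1 gene and imply no order. Akr1c13, Akr1c19 and Akr1c12 peak in liver while Akr1c18 stays under 1 FPKM, and Gstt1 has its lowest point in dorsal pancreas.

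P450s were low at single-name loci. The joined locus of Cyp2c40, Cyp2c68 and Cyp2c69 reached 137 FPKM in liver, and that of Cyp4f16 and Gm9705 34.6 in ventral pancreas. None of the 23 Cyp members reached 20 FPKM, their median maximum was 2.48 FPKM, and 9 were highest in liver. The highest was Cyp20a1, an orphan P450, at 12.0 FPKM in foregut and 14.4 in medial foregut, against 17.8 in liver, with 14.1 in ventral and 10.1 in dorsal pancreas. Cyp2c70, which makes muricholic bile acids in mice (chromosome 19, 40227853 to 40261794), was listed at 0 in foregut, medial foregut and dorsal pancreas. It stood at 9.22 FPKM in liver and 0.671 in ventral pancreas, a ratio of 13.7. Cyp4f15, of the fatty acid hydroxylase family (chromosome 17, 32822518 to 32840882), stood at 3.44, 2.28, 6.86, 14.6 and 1.57 FPKM, with ventral pancreas highest and dorsal lowest. Several others, named after their values were seen, were also highest in ventral pancreas. Cyp39a1, an oxysterol hydroxylase of bile acid synthesis, stood at 5.38, 4.401, 2.14, 12.0 and 8.49 FPKM, lowest in liver. Cyp3a13, a drug-metabolising form, stood at 0.0851, 0.0268, 1.24, 2.58 and 0.128 FPKM. Cyp7b1, another oxysterol hydroxylase, did not exceed 0.849 FPKM, and Cyp27a1, a sterol hydroxylase of bile acid synthesis, did not exceed 2.77. Of the Cyp members not yet named, Cyp2d22 (0.799 to 5.83 FPKM), Cyp2j6 (2.46 to 6.66) and Cyp4f17 (2.02 to 5.04) were those that exceeded 5 FPKM. Cyp1b1, Cyp26b1 and Cyp4v3 were low with their highest value in liver, at 3.76, 2.19 and 1.41 FPKM.

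Flavin monooxygenases and hydrolases were low too, apart from Ephx2. Fmo2 (chromosome 1, 164804490 to 164863773) stood at 0.108 FPKM in foregut and 0.136 in medial foregut, against 0.0125 in liver, with 1.51 in ventral and 5.15 in dorsal pancreas, at a locus that measures 243% of the annotated span. Its neighbours Fmo1 and Fmo4 did not share this profile, at 1.42 to 3.03 and 0.355 to 0.884 FPKM. The 6 mesenchyme markers summed to 703, 1160, 156, 10.8 and 156 FPKM across the libraries. The 6 did not share a profile. Barx1, Nkx3-2 and Foxf1a were highest in dorsal pancreas, at 89.3, 9.57 and 18.8 FPKM, Acta2 and Tagln were lowest there, at 0.923 and 1.89, and Pdgfra was higher in medial foregut (41.7) than in dorsal pancreas (35.0). The Foxf1a locus lies on the other strand and measures 806% of the annotated span. The part of mesenchyme in the Fmo2 values was not tested. Fmo5 was highest in liver, at 4.25 FPKM. Ces1d, a carboxylesterase that also hydrolyses triacylglycerol (chromosome 8, 95690029 to 95721718), stood at 0.905, 0.524, 0.577, 6.75 and 4.65 FPKM. Like Gsta3, it was higher in both pancreatic libraries than in the other libraries. Ephx2, the soluble epoxide hydrolase, stood at 8.21, 2.91, 15.3, 11.05 and 3.48 FPKM, and Ephx1, the microsomal form, did not exceed 1.77. Ephx4 and Ces1g did not exceed 1.60 and 0.310.

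For comparisons between tissues, a locus counted as higher or lower if its values differed by at least 2 on the log2(FPKM + 1) scale (4 times) and the higher library reached 5 FPKM, against each library compared. The first comparison asked which members set liver apart from pancreas at the same age. Liver was higher than both pancreatic libraries for 4 members: Gstm1, Akr1c13, Cyp2c70 and Akr1c12. That is 5.41% of the members, where 1.04% of all named loci were counted. No member was counted lower in liver, where 1.51% of all named loci were. Gsta3, named for this, missed only by the 5 FPKM rule, with differences of -2.38 and -2.10. Cyp39a1 (-2.05 and -1.60) missed by size in the dorsal comparison, and Ces1d (-2.30 and -1.84) by both size and level there, with 4.65 FPKM in dorsal pancreas.

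Over all 74 members the median difference of liver minus ventral pancreas was -0.01, and of liver minus dorsal pancreas 0.08, where all named loci had -0.17 and -0.16. The first of these turned to 0.13 under median-ratio rescaling of the libraries and the second to -0.02 under rescaling to equal totals. Against ventral pancreas 8 members were at least 1 above and 9 at least 1 below, where 4.92% and 13.7% of all named loci were. The 25 aldehyde, alcohol and carbonyl enzymes had a median of 0.30 with 18 (72%) above 0. The 5 hydrolases had a median of -0.63 with 1 (20%) above 0, where 38.8% of all named loci were. Against dorsal pancreas 18 members were at least 1 above and 8 at least 1 below, where 6.29% and 13.7% of all named loci were. Summed hepatocyte, leukocyte, cardiomyocyte, endothelial and mesothelial markers also stood higher in liver than in both pancreatic libraries. Mesothelial sums were 25.7 against 3.36 and 6.63 FPKM (3 markers found of 4), endothelial sums 56.5 against 10.6 and 41.1, and the others as above. Single markers went the other way: Nkx2-5 of cardiomyocytes stood at 0.0191 in liver against 0.0358 and 4.77. The endothelial Emcn stood at 9.75 in liver against 11.3 in dorsal pancreas. The part of these cell types in the differences was not tested.

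**Figure D4:**
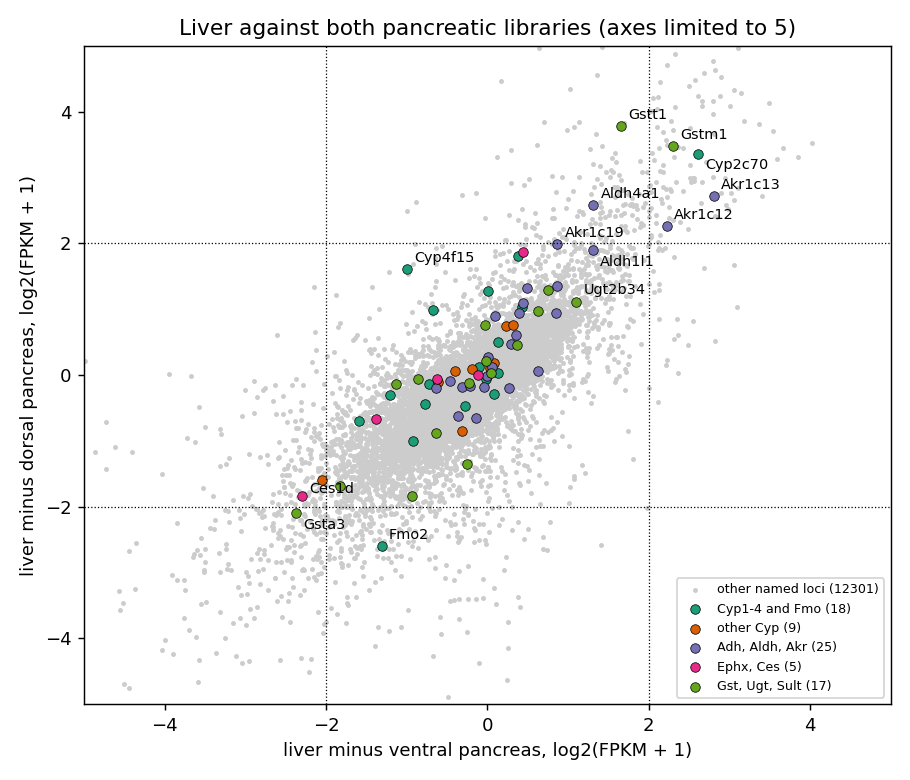
Difference of liver from ventral pancreas (x axis) and from dorsal pancreas (y axis) in log2(FPKM + 1), with the 74 members coloured by role over the other named loci in grey and dotted lines at 2 in size; 49 loci, none of them a member, lie outside the axes. Gstm1, Cyp2c70, Akr1c13 and Akr1c12 lie past 2 on both axes. Gsta3 lies past -2 on both but was under 5 FPKM in dorsal pancreas, and Gstt1 is 1.66 on the x axis and 3.78 on the y axis.

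The second comparison was of ventral with dorsal pancreas. Ventral pancreas was higher for Gstt1 and Cyp4f15, 2.70% of the members against 0.913% of all named loci, with differences of 2.12 and 2.61. No member was counted lower, where 0.768% of all named loci were. With 2 members counted, this share rests on single genes. Taken at any size, the members leaned to the ventral side: 56 of all 74 were above 0, and the median difference was 0.30, against 51.7% and 0.01 for all named loci. The farthest to the dorsal side were Fmo2 at -1.29 and Gstk1 at -1.10. Hepatocyte markers stood at 459 FPKM in ventral against 45.4 in dorsal pancreas, endothelial markers at 10.6 against 41.1 and mesenchyme markers at 10.8 against 156. Within the mesenchyme list, Acta2 (2.78 against 0.923) and Tagln (2.65 against 1.89) went the other way. Epithelial markers stood at 894 against 466, and erythroid markers (3 found of 8) at 116 against 27.2. Endocrine markers (3 found of 5) stood at 212 against 1374. The part of these cell types in the differences between the 2 pancreatic libraries was not tested.

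Between medial foregut and foregut no member was counted in either direction, where 0.00808% of named loci were higher and 0.0404% lower. The member farthest from 0 was Ephx2, at -1.23. The median difference of the members was -0.02, and 34 of 74 were above 0, against -0.002 and 49.4% for all named loci.

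The remaining comparisons set each E10.5 library against both E8.5 libraries. All of them use the same 2 E8.5 libraries, so their lists are not independent of each other. Liver was higher for 9 members (12.2% against 2.29% of named loci): Akr1c13, Akr1c19, Akr1c12, Aldh1b1, Gstm1, Ugt2b34, Cyp2c70, Aldh4a1 and Aldh1l1. The smaller of its differences from the 2 E8.5 libraries was 4.97 for Akr1c13, 4.65 for Akr1c19 and 4.47 for Akr1c12. Ventral pancreas was higher for 8 (10.8% against 1.96%): Akr1c19, Akr1c13, Akr1c12, Aldh1b1, Gsta3, Ugt2b34, Ces1d and Aldh4a1. Here Aldh1b1 led with a smaller difference of 4.04, followed by Akr1c19 with 3.79. Dorsal pancreas was higher for 6 (8.11% against 1.45%): Aldh1b1, Akr1c19, Fmo2, Ugt2b34, Akr1c13 and Akr1c12. Aldh1b1 led again, with 4.55. Under median-ratio rescaling Aldh4a1 (1.89) and Ces1d (1.92) fell short of the size rule in ventral pancreas, and Fmo2 of the 5 FPKM level in dorsal pancreas.

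No member was counted lower at E10.5 than at E8.5 in any of these 3 comparisons, where 2.12%, 1.49% and 1.18% of named loci were. The nearest were Sult4a1 in liver, at -1.94 against medial foregut, and Gstt1 in dorsal pancreas, at -1.70 against foregut. Some family loci left out of the members were lower in all 3 E10.5 libraries. Aldh1a2 stood at 35.4, 16.0, 2.51, 0.353 and 1.16 FPKM. The joined locus of Cyp26a1 and Cyp26c1 stood at 13.02, 12.1, 0.156, 0.119 and 0.122. At any size, all 3 E10.5 libraries lay above both E8.5 libraries for 32 members (43.2%) and for 20.6% of named loci. Both E8.5 libraries lay above all 3 E10.5 libraries for 9 members, where 15.4% of named loci did. The median differences from foregut were 0.43 for liver, 0.63 for ventral and 0.30 for dorsal pancreas, where all named loci had -0.09, 0.11 and 0.09. The E8.5 libraries also carried 3294 and 5653 FPKM of cardiomyocyte markers, and the part of these cells in the differences was not tested.

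**Figure D5:**
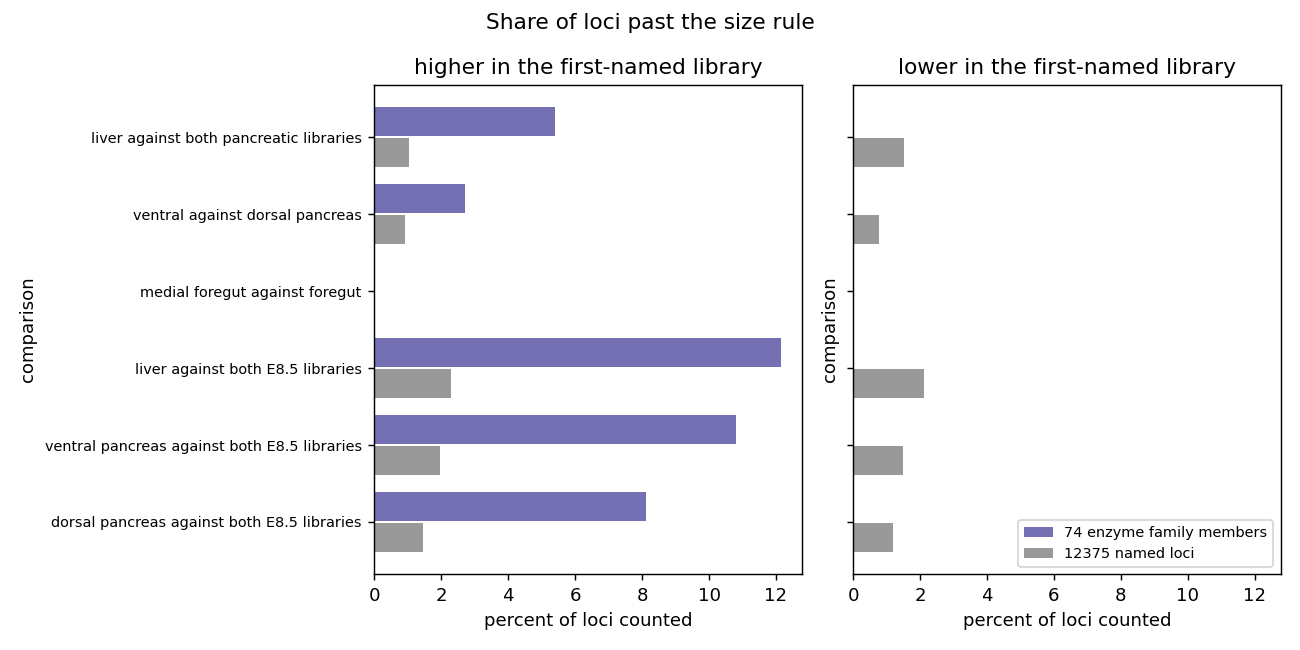
Percent of the 74 members (purple) and of the 12375 named loci (grey) counted as higher (left) or lower (right) in the first-named library of each of the 6 comparisons, with 1 library per tissue. The purple bar is longer than the grey one on the left in 5 comparisons and is 0 throughout on the right.

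Of 54 listed partners and regulators of these enzymes, 40 were found by name, and 14 are not analysed here. Liver was higher than both pancreatic libraries for 1 of the 40, the nuclear receptor gene Hnf4a, which is also among the hepatocyte markers, and lower for 0. Over all named loci, 1.04% were higher and 1.51% lower. Ventral pancreas was higher than dorsal for 2, the transcription factor genes Cebpa and Onecut1, where 0.913% of all named loci were. Against both E8.5 libraries, liver was higher for 4 (Hnf4a, Cebpa, Nr5a2 and Gss), ventral pancreas for 4 (Hnf4a, Cebpa, Nr5a2 and Onecut1) and dorsal pancreas for 1 (Nr5a2). Over all named loci these shares were 2.29%, 1.96% and 1.45%. Counts this small rest on single genes. Nr5a2, a nuclear receptor that regulates bile acid synthesis genes, stood at 1.65 FPKM in foregut and 0.531 in medial foregut, against 22.7 in liver, with 45.1 in ventral and 17.1 in dorsal pancreas. Hnf4a stood at 3.30, 2.30, 158, 31.3 and 12.95 FPKM, Cebpa at 0.282, 0.111, 47.3, 18.04 and 2.82, and Onecut1 at 4.45, 2.12, 11.9, 78.0 and 18.3. Their profiles thus differed, with liver highest for Hnf4a and Cebpa and ventral pancreas highest for Nr5a2 and Onecut1.

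Of the 11 genes of cofactor supply, 1 was counted, as higher in liver than at E8.5, where 2.29% of all named loci were. Gss, glutathione synthetase, stood at 6.00, 6.67, 37.8, 11.2 and 9.58 FPKM. Cyb5, the cytochrome b5 that passes electrons to P450s, stood at 40.1, 47.0, 93.6, 58.4 and 44.0 FPKM. Ugdh, which makes the sugar donor for glucuronidation, was highest at E8.5, at 45.9, 68.4, 27.7, 30.7 and 21.9 FPKM. Ahcy, of the methylation cycle, stood at 75.9, 72.7, 104, 51.3 and 55.5 FPKM, and Mat2a, of the same cycle, at 65.3, 56.1, 51.0, 43.7 and 51.1. None of the 9 exporters and uptake carriers found was counted in any of the 6 comparisons. Abcb1b, Abcb4, Abcb11, Abcc2, Abcc3 and Slc10a1 stayed under 5 FPKM in all libraries, so the level rule could not count them. Among these, Abcc2 stood at 0.0292, 0.0658, 2.98, 0.177 and 0.0202 FPKM, and Abcb1b at 2.61, 2.86, 0.874, 0.913 and 0.703.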

How the data were processed

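Poly(A) RNA of 5 tissues was sequenced as paired-end libraries, per the labels' protocols, with random priming and no strand marking described. The authors deposited 1 table of FPKM values, per the file headers. TopHat, Cufflinks 1.3.0 and the mm9 build appear in the submitters' processing notes, without role or order. How libraries were scaled to each other is not stated there. Of 14053 loci, 1678 had no name and entered no comparison. Columns were assigned by the name that each label repeats.

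Whole-read steps were looked for among 137 loci under 0.1 FPKM in both E8.5 libraries. At most 3 shared a ratio to 3 decimals, so no counts were recovered. Differences used a pseudocount of 1 FPKM. With 1 library per tissue there was no test. Locus coordinates are those of the table (mm9). Promoters came from RefSeq (GRCm38.p6), where 55 of 74 members matched by symbol. GENCODE M21 served for strand, span and transcript windows of 100 bases. Of the members, 2 loci (Ephx4 and Sult2b1) lay on the other strand, 2 (Cyp2b13 and Cyp4f13) had none, and 4 (Akr1b3, Aldh1a1, Cyp2b13 and Cyp2u1) covered under 30% of the annotated span. Marker loci also departed from it, among them Sox2 at 5728%, Pax6 at 938% and Cx3cr1 at 0.287% of the annotated span. The genes named with all 5 values are those counted in a comparison, those at 20 FPKM or more, and the highest of each family or Gst class; other members were named after their values were seen. Members, lists, motifs and comparisons were chosen with earlier results of these data known. Python 3.11.15, numpy 2.4.6 and pandas 2.3.3 were used.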

Additional observations from a re-analysis of the deposited data

How the results depend on the processing

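No paired analysis was possible because each tissue has 1 library, and for the same reason no replicate could be left out. Counts of members are given here where they moved by over 1.5 times. With a pseudocount of 5 FPKM, liver was higher than both pancreatic libraries for 2 members (Akr1c13 and Gstm1), ventral than dorsal pancreas for 0, ventral pancreas than E8.5 for 2 and dorsal pancreas than E8.5 for 1. Over all named loci the first 2 of these shares were 0.453% and 0.275%. With no filter on low values, 1 member (Gsta3) was lower in liver than in pancreas, where 1.68% of all named loci were. With every library rescaled to a total of 1000000, 3 were lower in liver than in pancreas (Ces1d, Gsta3 and Ugt8a), where 2.81% of all named loci were. In that setting 1 was lower in liver than at E8.5 (Sult4a1). At 2 times in FPKM + 1 the counts, higher then lower, were 8 and 1 for liver against pancreas, 7 and 2 for ventral against dorsal pancreas, 18 and 1 for liver against E8.5, and 17 and 1 for ventral pancreas against E8.5. Of all named loci, 3.11% and 5.36% were counted for liver against pancreas, and 3.28% and 2.47% for ventral against dorsal pancreas. At 2 times, dorsal pancreas was lower than E8.5 for 2 members. Medial foregut was lower than foregut for 1, where 0.469% of all named loci were. The counts against E8.5 in this section are given without the share of all named loci, and nothing is read from their size. Median-ratio rescaling and leaving out partial or other-strand loci, the latter chosen after seeing the data, moved no count by over 1.5 times. Median-ratio rescaling did end 3 single-gene calls against E8.5: Aldh4a1 (smaller difference 1.89) and Ces1d (1.92) in ventral pancreas, and Fmo2 (2.36, under 5 FPKM) in dorsal pancreas. The same rescaling turned the median of liver minus ventral pancreas from -0.01 to 0.13, where all named loci moved from -0.17 to 0.02. Of 203 single-gene differences under the 7 alternatives, 183 kept their call, 20 lost it (17 at a pseudocount of 5 FPKM and these 3) and 0 changed sign. Rescaling to the total turned the median of liver minus dorsal pancreas from 0.08 to -0.02. Depth is unknown, so values near 0 carry no interval.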

Other observations

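The name rule left out 11 loci where the table joins several genes of these families or one of them with a neighbour, and which gene the reads came from cannot be told. The locus of Cyp2c40, Cyp2c68 and Cyp2c69, on chromosome 19 like Cyp2c70, was listed at 0 in foregut and medial foregut. It stood at 137 FPKM in liver, against 12.3 in ventral and 0.0200 in dorsal pancreas, above each single-name P450 in liver. The joined locus of Gstm2, Gstm3, Gstm6 and Gstm7, which lies between Gstm5 and Gstm1, stood at 6.32 FPKM in foregut and 11.1 in medial foregut, against 35.9 in liver, with 40.0 in ventral and 19.6 in dorsal pancreas. It thus had neither the liver peak of Gstm1 nor the narrow range of Gstm5. Gstz1, joined with Tmed8, stood at 6.12, 5.97, 50.5, 22.4 and 15.9 FPKM.

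The joined locus of Cyp26a1 and Cyp26c1, P450s that break down retinoic acid, had the opposite profile. It stood at 13.02 FPKM in foregut and 12.1 in medial foregut, and at 0.156, 0.119 and 0.122 in liver, ventral and dorsal pancreas. Cyp26b1, the single-name gene of that group, lay between 0.907 and 2.19 FPKM in all 5 libraries. The Cyp4f genes of chromosome 17 were highest in ventral pancreas also where joined: the locus of Cyp4f16 and Gm9705 stood at 9.83, 14.3, 9.70, 34.6 and 13.8 FPKM, and that of Cyp4f13 and Cyp4f14, which has the same interval as the single-name Cyp4f13 locus, at 6.82, 4.06, 8.02, 16.0 and 9.65. Cyp4f17 was the exception, at 4.74 FPKM in ventral pancreas against 5.04 in dorsal pancreas.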
